A study of Mus musculus with 2 samples.

Results

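The WNT family genes described here are the secreted WNT ligands, their Frizzled and LRP receptors, the R-spondins with their LGR receptors, and the secreted antagonists of the pathway. They were taken from the authors' table by symbol, as each gene named Wnt, Fzd, Sfrp, Dkk or Rspo followed by a digit, together with Wif1, Axin2, Lrp5, Lrp6, Lgr4, Lgr5 and Lgr6. The rule found 44 of the 19347 genes in that table. They comprised 15 ligands, 12 receptors, 4 R-spondins, 3 LGR receptors, 8 antagonists, Axin2 and Rspo4os, an antisense transcript whose reads cannot be told from those of Rspo4 unless strand was used in counting. The dural meninges, the outer membrane that lines the skull, were taken at postnatal day 14 (2 weeks) and profiled by 10x Genomics single-cell RNA sequencing. The KO library came from IL-33 deficient mice (Il33mcherry/mcherry, labelled Il33H2B-mcherry-KO). The het library came from their heterozygous controls (Il33mcherry/+, labelled Il33H2B-mcherry-het). Mice of both groups therefore carried the mCherry allele at Il33, on 1 copy or both, and the comparison asks what loss of the remaining Il33 copy does to the dura.

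Each genotype had 1 library, made from dura of 5 to 8 mice pooled per genotype and sex. Cells were released at 37 °C over 30 min and sorted, and CD45+CD11b- lymphocytes, gp38+CD31- stroma and all viable cells were combined at 1:1:2, so the numbers of cells per type follow the sort. With 1 library per genotype no difference between genotypes could be tested. Levels and shares of cells below have exact 95% intervals in parentheses at their main mention, and KO/het ratios have their own. All cover counting error only, not the spread between mice. Intervals of levels and ratios count each UMI as independent, so they also leave out the spread between cells.

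WNT proteins are lipid-modified secreted signals. Porcn and Wls prepare and release them, and a Frizzled receptor together with Lrp5 or Lrp6 receives them, which in the canonical branch stabilises beta-catenin and switches on targets such as Axin2. R-spondins bind LGR receptors and keep Frizzled receptors on the cell surface. Secreted Frizzled-related proteins (Sfrp) and Wif1 bind the ligands, and Dickkopf proteins such as Dkk1 and Dkk2 act on Lrp5 and Lrp6. Around the skull the pathway is known for its part in bone formation and in the barrier of brain blood vessels.

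The matrices held 12046 barcodes for KO and 10936 for het, of which the authors annotated 6594 KO cells (54.7%) and 5950 het cells (54.4%) and placed them in 22 clusters. Annotated cells had a median of 12204.5 UMIs (unique molecular identifiers, 1 per captured RNA molecule) in KO and 12746.5 UMIs in het. The libraries shared 36 barcodes, 14 of them among annotated cells. The unit CPM stands for a gene's UMIs in all annotated cells of 1 cluster and library, scaled to 1000000 UMIs of those cells. They are not divided by gene length, so they are compared between clusters and libraries and not between genes. Il33 had 911 UMIs in KO and 3827 UMIs in het, and in cluster 0 it was at 24.5 CPM in KO and 110 CPM in het. Its RNA was thus lower in the KO library but not absent, and a 3′ tag need not report on the deleted part of a gene.

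Clusters are called by number, with a type where markers gave one. Cluster 4 was osteolineage-like, with 7 of 7 markers such as Ibsp and Bglap at 2-fold or more over the other cells, and cluster 7 was fibroblast-like with 6 of 6, led by Pi16, Dpt and Clec3b. Cluster 5 was arachnoid barrier-like with 4 of 7, led by Ptgds and Slc6a13. Cluster 0, with 4 of 6 fibroblast markers, was led by Slc47a1, Cxcl14 and Smoc1 and keeps its number. Cluster 8 was blood endothelial-like, cluster 20 pericyte or smooth muscle-like, and cluster 17 neuron-like. Cluster 15 held markers of both Schwann cells and oligodendrocytes, with Mag and Mal among its leading genes, and keeps its number. B cell-like cells made up clusters 1, 2, 6, 10 and 16. The macrophage-like cells were cluster 3, with cluster 14 dendritic cell-like and cluster 18 monocyte-like, while clusters 9, 11, 12 and 13 are other immune clusters without a single name. Cluster 19 was olfactory neuron-like and cluster 21 pineal or photoreceptor-like.

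The promoters of 3 genes are shown because these mark the sources and the readout of the pathway described below: Wnt6, a ligand of the barrier and glial clusters, Sfrp5, an antagonist with most of its RNA in cluster 15, and Axin2, the canonical target. Each line gives the 250 bases before the gene's start, 5′ to 3′ on the gene's strand, from RefSeq on GRCm38.p6.
Wnt6, chr1:74771642-74771891, plus strand: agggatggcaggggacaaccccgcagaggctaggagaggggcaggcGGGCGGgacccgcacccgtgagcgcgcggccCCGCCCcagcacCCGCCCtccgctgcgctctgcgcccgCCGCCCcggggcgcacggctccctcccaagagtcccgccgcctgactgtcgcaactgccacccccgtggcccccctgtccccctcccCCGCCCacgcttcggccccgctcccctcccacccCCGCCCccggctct
Sfrp5, chr19:42202253-42202502, minus strand: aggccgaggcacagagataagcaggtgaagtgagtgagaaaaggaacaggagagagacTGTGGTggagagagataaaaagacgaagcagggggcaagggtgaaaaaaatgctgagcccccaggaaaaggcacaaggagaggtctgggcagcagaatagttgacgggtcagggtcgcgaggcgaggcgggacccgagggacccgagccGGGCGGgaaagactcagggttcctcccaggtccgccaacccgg
Axin2, chr11:108920099-108920348, plus strand: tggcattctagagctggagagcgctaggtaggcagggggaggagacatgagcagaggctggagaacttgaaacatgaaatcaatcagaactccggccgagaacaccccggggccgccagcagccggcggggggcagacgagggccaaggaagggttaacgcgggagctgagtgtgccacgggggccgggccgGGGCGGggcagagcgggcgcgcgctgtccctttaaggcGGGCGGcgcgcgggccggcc
Capitals mark matches, on either strand, to the GC box GGGCGG and, in Sfrp5, to the RUNX word TGTGGT. The Wnt6 window held 6 GC boxes and was 79.6% G or C, the Axin2 window held 2 at 69.2%, and the Sfrp5 window held 1 at 59.6%. A GC box was present in 21 of the 28 member promoters in the reference table and in 32.9% of all 27025 promoters. TGTGGT was found in 2 of the 28 and in 14.2% of all. The TCF/LEF word, CTTTG followed by 2 letters that are each either A or T, was found in 3 of the 28 (Dkk1, Fzd7 and Wnt11) and in 14.9% of all, and TATAAA in 5 of the 28 and in 12.97% of all. None of the 3 windows shown had a TCF/LEF word or TATAAA within these bases. Wnt6 also lies next to Wnt10a on chromosome 1, with 6193 bases between them, and Wnt9b next to Wnt3 on chromosome 11.

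Of the 44 members, 36 had at least 100 UMIs over all annotated cells and 29 had at least 500. The stroma and barrier clusters 0, 4, 5 and 7 held 81.3% of the 174179 member UMIs, against 42.0% of all UMIs. With both libraries pooled, these clusters had the highest CPM of, or led, 26 of the 36 members, with 7 led by cluster 0, 9 by cluster 4, 8 by cluster 5 and 2 by cluster 7. The other 10 were led by cluster 17 (3 members), clusters 8 and 15 (2 each) and clusters 2, 6 and 11 (1 each). Within single libraries, clusters 0, 4, 5 and 7 led 25 members in KO and 27 in het. Leading clusters were not counted over all genes, so these counts do not show that members differ from other genes. The leading cluster was the same in both libraries for 29 of the 36, and it differed for Wnt9a, Wnt11, Fzd2, Fzd8, Fzd9, Lgr4 and Lgr5. Axin2 was led by cluster 5 in each library and by cluster 17 in the pooled value. The other 8 members were nearly absent. Wnt10b had 69 UMIs, Wnt2b 50, Wnt7b 32, Rspo4 18, Wnt7a 17, Dkk1 11, Wnt9b 6 and Rspo4os 5 over both libraries.

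**Figure D1:**
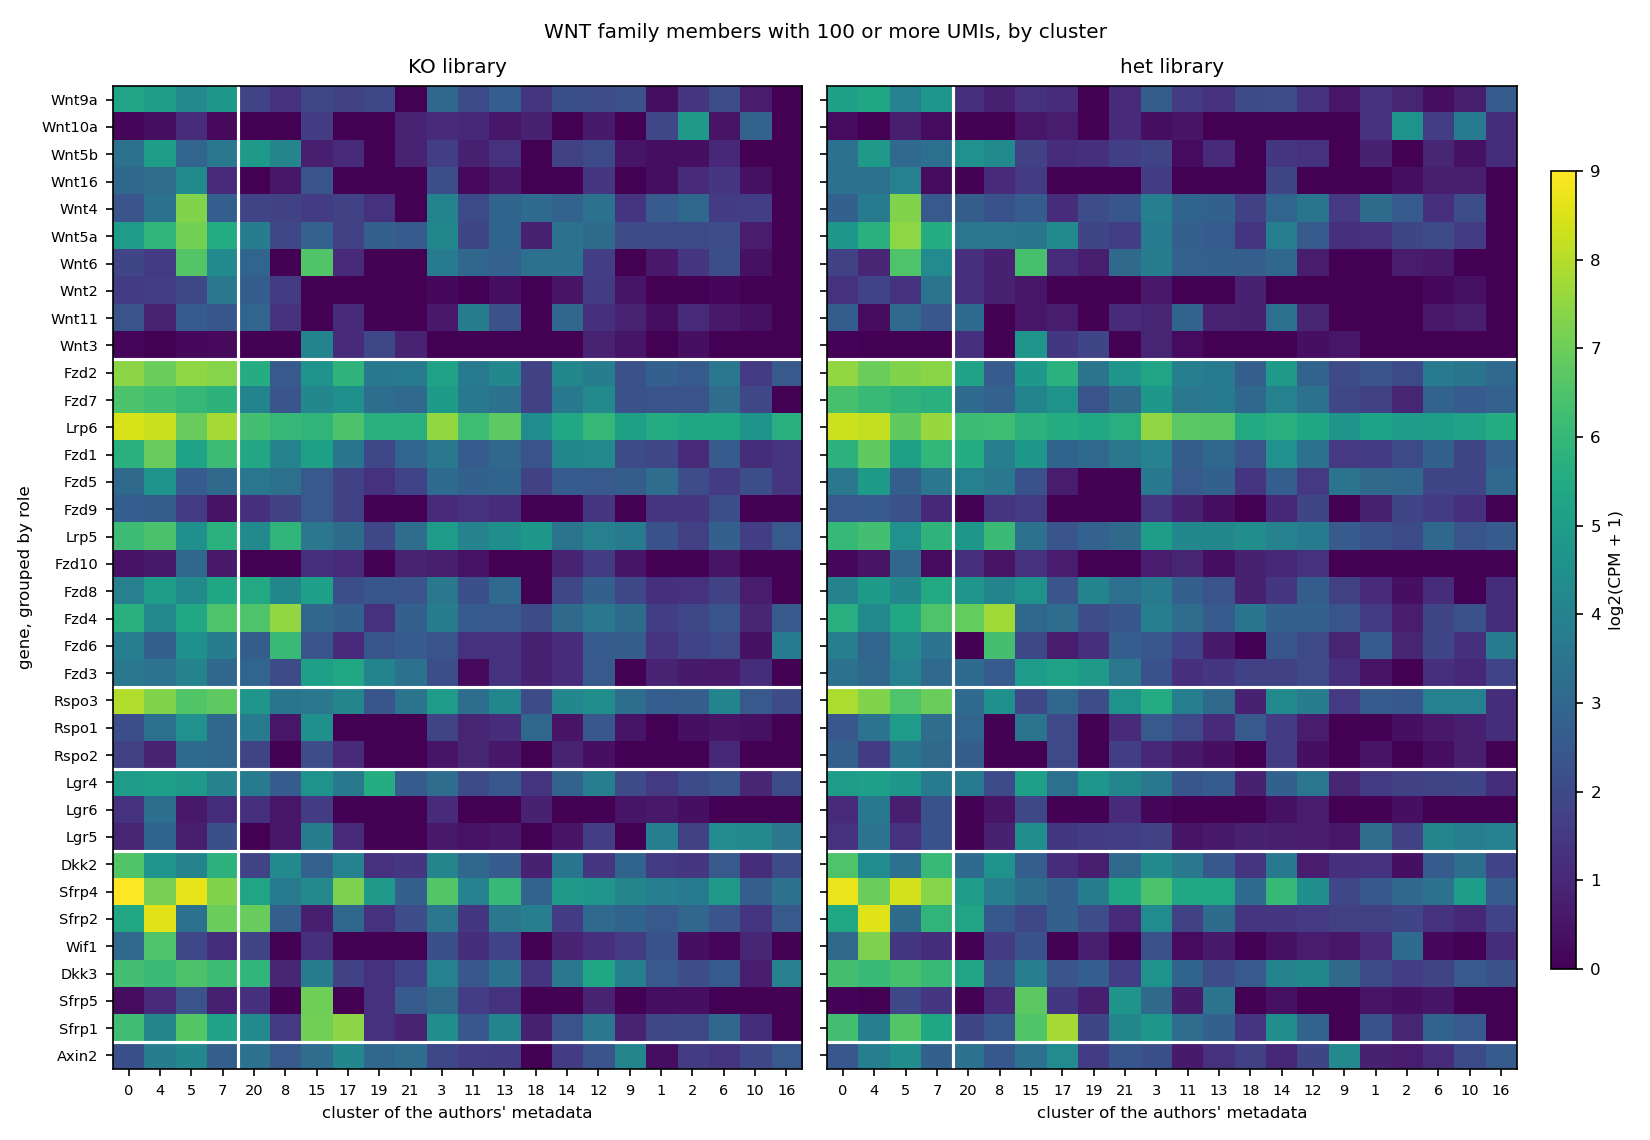
Level of the 36 members with at least 100 UMIs (rows, grouped by role) in each cluster (columns) as log2(CPM + 1), with the KO library on the left and the het library on the right. The 4 columns left of the white line are clusters 0, 4, 5 and 7, which lead 26 of the 36 members with both libraries pooled.

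The ligands were concentrated in the arachnoid barrier-like cluster 5, where their summed level was 439.8 CPM in KO and 473 CPM in het, against 149 CPM in KO and 144 CPM in het in cluster 4, 127 CPM in KO and 121 CPM in het in cluster 7 and 96.96 CPM in KO and 94.97 CPM in het in cluster 0. Wnt4, Wnt5a and Wnt6 made up most of it. At least 1 ligand UMI was found in 93.01% of KO cells (89.9 to 95.4) and 89.5% of het cells (85.4 to 92.7) of cluster 5, and at least 3 different ligands in 39.2% of KO cells and 40.3% of het cells. After each cell was thinned to 1000 UMIs, 28.8% of KO cells and 35.6% of het cells still had a ligand UMI. Thinned cells of cluster 0 were at 7.97% in KO and 7.52% in het. Those of cluster 4 were at 14.1% in KO and 12.7% in het. Cluster 7 was at 13.3% in KO and 10.98% in het, so cluster 5 stood above these stroma clusters at equal depth. In the B cell-like cluster 1, at a lower depth, 5.67% of KO cells and 5.73% of het cells had a ligand UMI before thinning.

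Wnt4, a ligand known from epithelial and kidney development, was at 154 CPM (146 to 164) in KO and 158 CPM (148 to 168) in het in cluster 5 and at 15.8 CPM in KO and 13.7 CPM in het in the macrophage-like cluster 3. Cluster 5 held 67.1% of its UMIs, and Wnt4 was among the 10 genes that set this cluster apart, so its place there is a description of the cluster. A Wnt4 UMI was found in 41.1% of KO cells (36.1 to 46.3) and 45.8% of het cells (39.98 to 51.6) of cluster 5, against 2.49% of KO cells and 2.85% of het cells in the B cell-like clusters (median of 19135 UMIs per cell in KO and 17472 UMIs in het in cluster 5, against 4968 UMIs in KO and 4965 UMIs in het). Thinned to 1000 UMIs, cluster 5 was at 10.5% of KO cells and 14.2% of het cells.

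Wnt5a, best known as a non-canonical ligand, was at 137 CPM (129 to 146) in KO and 177 CPM (166 to 188) in het in cluster 5. It was more widely spread than Wnt4, with 59.4 CPM in KO and 51.7 CPM in het in cluster 4, 45.1 CPM in KO and 46.5 CPM in het in cluster 7 and 29.4 CPM in KO and 26.4 CPM in het in cluster 0. Wnt6 had a pair of sources, with 94.6 CPM (87.7 to 102) in KO and 91.4 CPM (83.7 to 99.6) in het in cluster 5 and 92.9 CPM (77.9 to 109.8) in KO and 81.9 CPM (70.2 to 95.1) in het in cluster 15. Cluster 7 stood well under both, at 18.9 CPM in KO and 19.3 CPM in het.

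Cluster 5 was not uniform. Cells with a Wnt4 UMI (153 KO and 135 het) had Wnt6 at 172 CPM in KO and 152 CPM in het, whereas the other cells of the cluster had 40.8 CPM in KO and 39.2 CPM in het. The transporter Slc6a13, an arachnoid barrier marker, was at 751 CPM in KO and 730.0 CPM in het in the Wnt4-positive cells and at 63.2 CPM in KO and 116 CPM in het in the others. Wnt4, Wnt6 and Slc6a13 therefore shared cells in both libraries. Wnt16 went the other way, at 13.4 CPM in KO and 6.87 CPM in het with Wnt4 and at 21.4 CPM in both libraries without it. Cells with and without a Wnt4 UMI share a library, and no test was made between them.

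The remaining ligands had different leading clusters. Over both libraries Wnt9a was highest in cluster 0 at 37.2 CPM (34.6 to 39.8) in KO and 34.1 CPM (31.6 to 36.8) in het, with cluster 4 at 32.05 CPM in KO and 38.2 CPM in het and cluster 7 at 26.9 CPM in KO and 25.7 CPM in het. Wnt5b was highest in cluster 4 at 31.5 CPM (27.5 to 35.9) in KO and 28.6 CPM (24.1 to 33.5) in het and had a vascular part, with 27.6 CPM in KO and 22.4 CPM in het in cluster 20 and 15.9 CPM in KO and 18.9 CPM in het in cluster 8. Wnt16 was highest in cluster 5 at 18.1 CPM (15.2 to 21.5) in KO and 14.7 CPM (11.7 to 18.2) in het. These 3 had their highest levels in stroma, barrier or vascular clusters.

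Wnt10a, Wnt11 and Wnt3 were led by clusters outside the stroma and barrier when the libraries were pooled. Wnt10a was highest in the B cell-like cluster 2, at 27.7 CPM (22.5 to 33.7) in KO and 23.00 CPM (18.1 to 28.8) in het, with a UMI in 9.76% of KO cells (7.61 to 12.3) and 6.71% of het cells (4.86 to 8.99). Cells of cluster 2 with a Wnt10a UMI had Wnt10b, a close paralogue, at 13.1 CPM in KO and 6.06 CPM in het, and the other cells had 1.30 CPM in KO and 1.01 CPM in het. Wnt10b had only 15 UMIs in cluster 2 over both libraries, so these values rest on few UMIs and no difference is read from them. Wnt11 was at 13.2 CPM (10.3 to 16.5) in KO and 6.24 CPM (4.27 to 8.81) in het in cluster 11, a myeloid cluster led by Cd209a, at 6.77 CPM in KO and 8.69 CPM in het in the dendritic cell-like cluster 14, at 6.57 CPM in KO and 7.92 CPM in het in cluster 20 and at 5.10 CPM in KO and 7.43 CPM in het in cluster 5. Cluster 11 was first for Wnt11 in KO and cluster 14 in het, and 59.3% of its UMIs lay in clusters 0, 4, 5 and 7. Wnt3 was highest in cluster 15 at 15.7 CPM (9.96 to 23.6) in KO and 25.1 CPM (18.8 to 32.8) in het, where 13 of the 17 UMIs of Wnt7a also lay. Wnt2, by contrast, was highest in the fibroblast-like cluster 7 at 11.3 CPM (8.64 to 14.5) in KO and 10.1 CPM (7.40 to 13.4) in het.

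**Figure D2:**
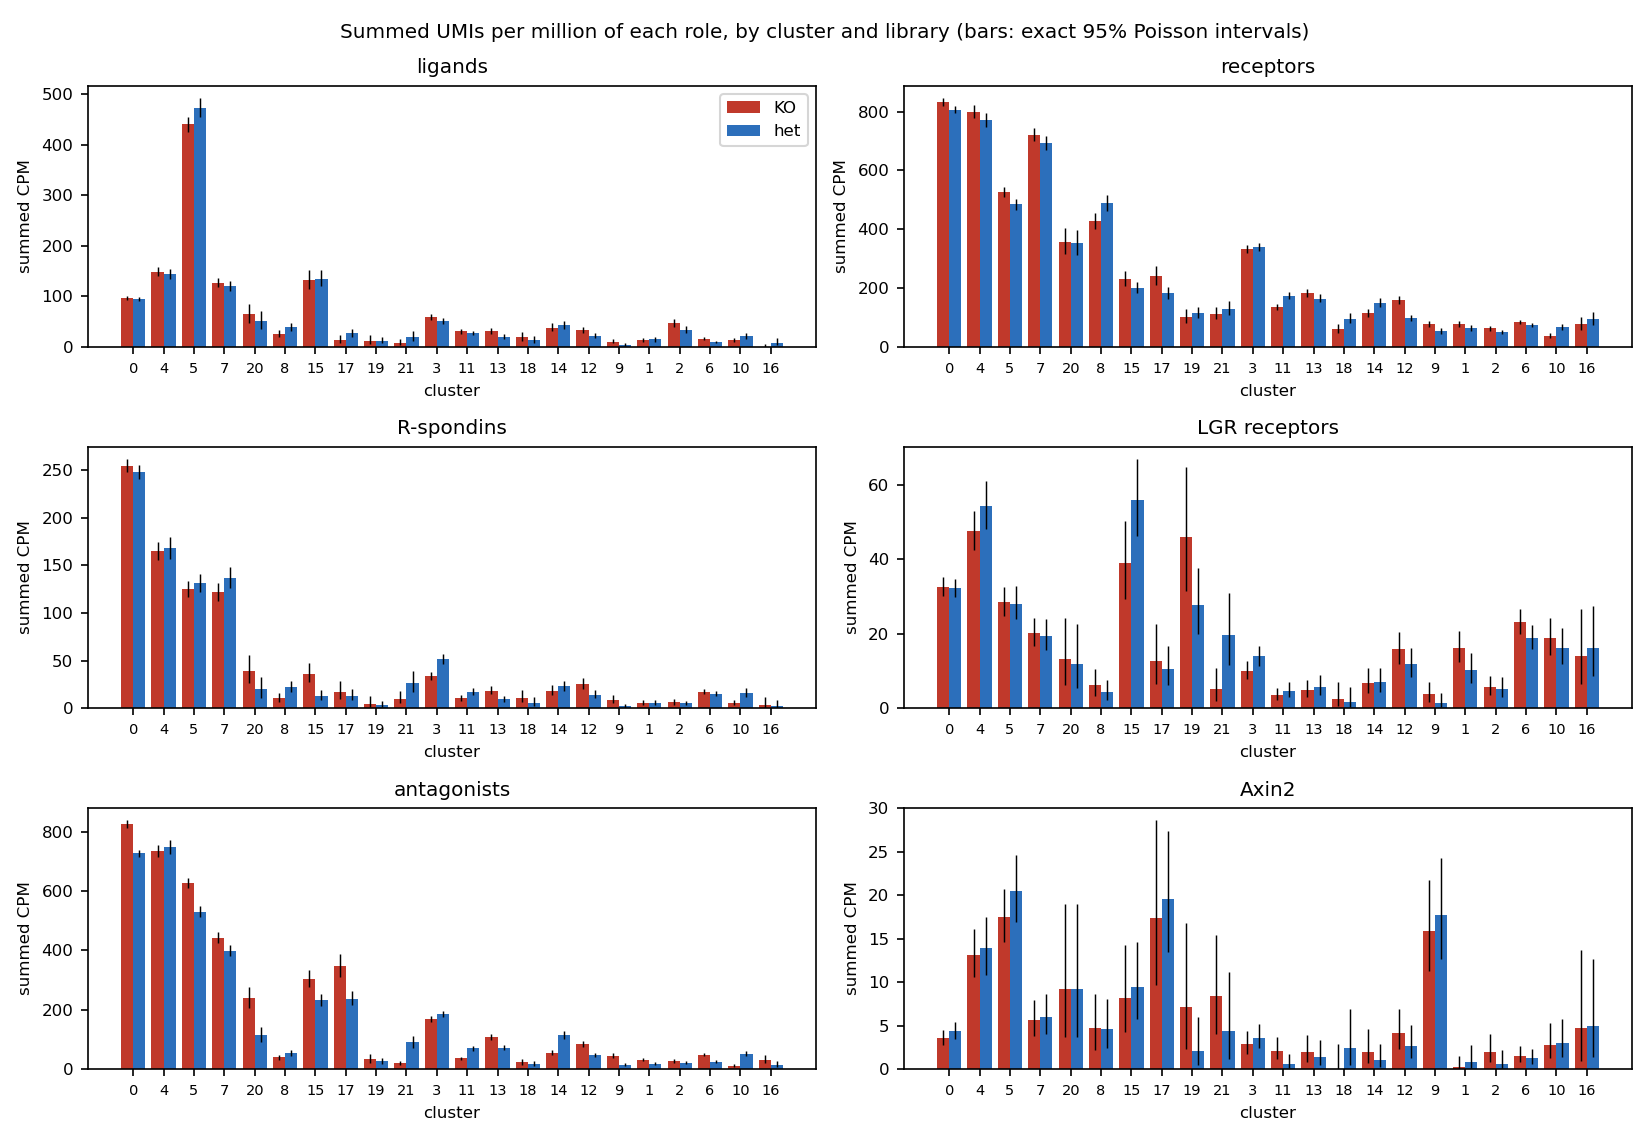
Summed CPM of the members of each role (panels) in each cluster (x axis), with KO bars left of het bars and exact 95% Poisson intervals as lines. Ligands peak in cluster 5 (440 CPM in KO and 473 CPM in het), R-spondins in cluster 0, and receptors and antagonists in the stroma clusters, while Axin2 is at 20.5 CPM or less in each cluster.

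The receptors were broader than the ligands. Their summed level was 832 CPM in KO and 806 CPM in het in cluster 0, 799.8 CPM in KO and 769.9 CPM in het in cluster 4, 722 CPM in KO and 693 CPM in het in cluster 7, 526 CPM in KO and 484 CPM in het in cluster 5 and 428 CPM in KO and 489.98 CPM in het in the blood endothelial-like cluster 8. Cluster 5, first for ligands, thus came after the stroma clusters for receptors, and in het its Poisson interval overlapped that of cluster 8. Lrp6, the co-receptor of canonical signalling, was at 349.8 CPM (342 to 358) in KO and 320.2 CPM (312 to 328) in het in cluster 0 and 300.1 CPM in KO and 291 CPM in het in cluster 4, and it reached 185 CPM in KO and 182 CPM in het in the macrophage-like cluster 3. Its UMIs were found in 98.4% of KO cells (97.4 to 99.01) and 97.97% of het cells (96.9 to 98.8) of cluster 0, and in 21.8% of KO cells and 20.5% of het cells of the shallower B cell-like clusters. Lrp5, the related co-receptor known for its part in bone mass, was highest in cluster 4 at 83.9 CPM (77.3 to 90.95) in KO and 78.5 CPM (71.1 to 86.5) in het.

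Among the Frizzled receptors, Fzd2 was nearly even over the stroma and barrier, with 171 CPM (165 to 176) in KO and 184 CPM (178 to 190.1) in het in cluster 0, 176 CPM in KO and 155 CPM in het in cluster 5 and 164 CPM in KO and 168 CPM in het in cluster 7. Fzd1 was highest in cluster 4 at 118 CPM (110.3 to 127) in KO and 112 CPM (103 to 121) in het. Fzd7 was highest in cluster 0 at 86.1 CPM (82.2 to 90.1) in KO and 81.4 CPM (77.4 to 85.5) in het, and cluster 4 followed at 76.5 CPM in KO and 67.5 CPM in het. With the libraries pooled, a further 4 were led by a stroma or barrier cluster: Fzd5 and Fzd9 by cluster 4, Fzd10 by cluster 5 and Fzd8 by cluster 7. Fzd5 was at 24.5 CPM (20.97 to 28.4) in KO and 28.9 CPM (24.5 to 33.96) in het in cluster 4, and Fzd8 was at 39.5 CPM (34.4 to 45.1) in KO and 43.1 CPM (37.3 to 49.5) in het in cluster 7 and 43.4 CPM in KO and 25.1 CPM in het in cluster 20. Fzd9 and Fzd10, at 464 and 164 UMIs in all, stayed under 10 CPM.

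Fzd4 and Fzd6 were highest in the blood endothelial-like cluster 8. Fzd4, the receptor for the ligand Norrin in retinal and brain endothelium, was at 186 CPM (168 to 205) in KO and 208 CPM (191 to 226) in het in cluster 8, with a UMI in 73.9% of KO cells (67.7 to 79.5) and 75.9% of het cells (70.2 to 80.9). Cluster 20 had 90.7 CPM in KO and 117 CPM in het and cluster 7 had 91.1 CPM in KO and 90.5 CPM in het. Fzd6, a receptor of planar cell polarity, was at 66.1 CPM (55.6 to 77.96) in KO and 80.6 CPM (70.1 to 92.3) in het in cluster 8, against 22.2 CPM in KO and 18.03 CPM in het in cluster 5. Fzd3, which guides axons in mice, was highest in the neuron-like cluster 17 at 40.5 CPM (28.2 to 56.3) in KO and 35.5 CPM (27.1 to 45.7) in het and next in cluster 15 at 32.8 CPM in KO and 29.8 CPM in het.

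Rspo3, the R-spondin known for vascular and bone development, supplied 97.7% of R-spondin UMIs in KO and 95.7% in het in cluster 0, as a share of UMIs that takes no account of length. It was at 249 CPM (242 to 255) in KO and 237 CPM (231 to 244) in het in cluster 0, 155 CPM in KO and 156 CPM in het in cluster 4, 107 CPM in KO and 121 CPM in het in cluster 7 and 94.2 CPM in KO and 89.99 CPM in het in cluster 5. A Rspo3 UMI was found in 79.3% of KO cells (76.9 to 81.6) and 78.6% of het cells (75.9 to 81.1) of cluster 0, against 3.504% of KO cells and 2.85% of het cells in the B cell-like clusters. Rspo1 was highest in cluster 5 at 22.6 CPM (19.3 to 26.2) in KO and 30.6 CPM (26.2 to 35.5) in het, and Rspo2 was also highest there at 7.93 CPM (6.03 to 10.2) in KO and 10.4 CPM (7.94 to 13.5) in het. R-spondin RNA was therefore mainly stromal in both libraries.

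The LGR receptors differed in place. Lgr4 was spread over cluster 4 at 32.5 CPM (28.4 to 36.98) in KO and 32.99 CPM (28.2 to 38.3) in het and cluster 0 at 30.2 CPM in KO and 29.6 CPM in het. The small cluster 19 was at 46.03 CPM in KO and 25.7 CPM in het. Lgr6, a marker of epithelial stem cells in mouse skin, was highest in cluster 4 at 8.55 CPM in KO and 11.6 CPM in het. Lgr5, a stem cell marker of the mouse gut, was different, with 24.9% of its UMIs in clusters 0, 4, 5 and 7. It was at 19.1 CPM (16.1 to 22.4) in KO and 16.3 CPM (13.5 to 19.4) in het in the cycling B cell-like cluster 6, 12.97 CPM in KO and 20.4 CPM in het in cluster 15, 17.8 CPM in KO and 13.5 CPM in het in cluster 10 and 10.96 CPM in KO and 14.9 CPM in het in cluster 16, with cluster 6 first in KO and cluster 15 first in het. A Lgr5 UMI was found in 29.9% of KO cells (24.97 to 35.2) and 21.3% of het cells (16.95 to 26.2) of cluster 6. Those cells were deep, with a median of 27771 UMIs in KO and 29008 UMIs in het, against 15252 UMIs in KO and 17976 UMIs in het for the others. At 1000 UMIs per cell the shares were 1.53% of KO cells and 2.20% of het cells, too few cells to read a difference from.

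The antagonists were also mainly stromal, with summed levels of 826 CPM in KO and 727 CPM in het in cluster 0, 734 CPM in KO and 748 CPM in het in cluster 4, 627 CPM in KO and 529.9 CPM in het in cluster 5 and 443 CPM in KO and 398 CPM in het in cluster 7. Which antagonist made up the sum changed from cluster to cluster. Sfrp4 supplied 64.4% of the antagonist UMIs in KO and 59.1% in het in cluster 0, and 65.2% in KO and 62.3% in het in cluster 5. Sfrp2 supplied 53.0% in KO and 50.3% in het in cluster 4. Sfrp1 supplied 50% in KO and 92.0% in het in the neuron-like cluster 17.

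Sfrp4, a secreted WNT binder whose loss thins cortical bone in mice and in people, was at 532 CPM (522 to 541) in KO and 429.9 CPM (421 to 439) in het in cluster 0 and 409 CPM in KO and 330.3 CPM in het in cluster 5, and at 156 CPM in KO and 164 CPM in het in cluster 7. It was detected in 83.3% of KO cells (81.01 to 85.4) and 83.03% of het cells (80.5 to 85.3) of cluster 0, against 7.05% of KO cells and 3.99% of het cells in the B cell-like clusters. Sfrp2 was at 389 CPM (375 to 404) in KO and 376 CPM (359.9 to 393) in het in the osteolineage-like cluster 4, with a UMI in 56.02% of KO cells (51.6 to 60.4) and 53.6% of het cells (48.3 to 58.9). In cluster 5 Sfrp2 was at 9.40 CPM in KO and 8.13 CPM in het, and in cluster 4 Sfrp4 was at 141 CPM in KO and 122 CPM in het.

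Sfrp1 led in the neuron-like cluster 17 at 173 CPM (147 to 203) in KO and 219 CPM (197 to 242) in het, then in cluster 15 at 136 CPM in KO and 92.3 CPM in het and cluster 5 at 97.7 CPM in KO and 95.6 CPM in het. Sfrp5, whose promoter is printed above, was highest in cluster 15 at 128 CPM (111 to 148) in KO and 107 CPM (93.1 to 121) in het, which held 58.7% of its UMIs, with a UMI in 37.9% of KO cells (28.5 to 47.96) and 38.5% of het cells (29.9 to 47.8) and in 0.0922% of KO cells and 0.207% of het cells of the B cell-like clusters. Cluster 15 had a pair of cell groups by these genes. Its Sfrp5-positive cells (39 KO and 47 het) had the oligodendrocyte gene Mog at 40.6 CPM in KO and 0 CPM in het, against 757 CPM in KO and 1742 CPM in het in the other cells. Wnt6 was at 196 CPM in KO and 241 CPM in het in the Sfrp5-positive cells, against 44.2 CPM in KO and 18.6 CPM in het in the others. Wnt3 had no UMI in the Sfrp5-positive cells of either library, which allows up to 3 UMIs in each, and was at 23.1 CPM in KO and 35.1 CPM in het in the others. Within cluster 15 Wnt6 therefore went with Sfrp5, and Wnt3 was found in the cells without it.

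Dkk2 was highest in cluster 0 at 93.4 CPM (89.3 to 97.6) in KO and 90.1 CPM (85.96 to 94.4) in het, followed by cluster 7 at 54.7 CPM in KO and 66.3 CPM in het. Dkk3, a divergent Dickkopf whose action on WNT signalling is less clear, was nearly even, with 89.2 CPM (82.5 to 96.2) in KO and 82.6 CPM (75.2 to 90.4) in het in cluster 5, 78.6 CPM in KO and 79.5 CPM in het in cluster 0, 71.7 CPM in KO and 68.4 CPM in het in cluster 7 and 69.2 CPM in KO and 66.4 CPM in het in cluster 4. Wif1 had 73.4% of its UMIs in cluster 4, where it was at 91.02 CPM (84.1 to 98.4) in KO and 150.1 CPM (139.7 to 161) in het.

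Wif1 was held by few cells. A Wif1 UMI was found in 97 of 507 KO cells and 85 of 360 het cells of cluster 4, and the 16 KO cells and 20 het cells with at least 10 UMIs carried 72.3% of its UMIs in KO and 76.9% in het. The Wif1-positive cells had the osteoblast gene Bglap at 3935 CPM in KO and 4021 CPM in het, against 70.0 CPM in KO and 211 CPM in het in the other cells of cluster 4. Ibsp, another bone matrix gene, was at 2364 CPM in KO and 2960 CPM in het, against 47.3 CPM in KO and 306 CPM in het. Wif1 was thus found with bone matrix genes within the osteolineage-like cluster.

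Axin2, a feedback inhibitor that canonical WNT signalling induces, was low in each cluster. It was at 17.3 CPM (9.71 to 28.6) in KO and 19.5 CPM (13.4 to 27.4) in het in cluster 17, 17.5 CPM in KO and 20.5 CPM in het in cluster 5, 15.9 CPM in KO and 17.8 CPM in het in cluster 9, a cluster with T, NK and innate lymphoid markers, and 13.1 CPM in KO and 13.9 CPM in het in cluster 4. Cluster 0, highest for Rspo3 and Lrp6, was at 3.58 CPM in KO and 4.40 CPM in het. In cluster 5 the Wnt4-positive cells had Axin2 at 25.8 CPM in KO and 27.1 CPM in het, and the other cells had 11.6 CPM in KO and 14.8 CPM in het.

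Some genes of the pathway outside these families are set beside this map. Wls, which carries WNT proteins to the surface, was at 219 CPM in KO and 218 CPM in het in cluster 5, 221 CPM in KO and 195 CPM in het in cluster 7, 185 CPM in KO and 195 CPM in het in cluster 0 and 183 CPM in KO and 178 CPM in het in cluster 4, against 63.3 CPM in KO and 65.97 CPM in het in cluster 8. Tnfrsf19, a target in several tissues, was at 142 CPM in KO and 189.6 CPM in het in cluster 4, against 3.44 CPM in KO and 2.96 CPM in het in cluster 0. Nkd1, another induced inhibitor, was at 254 CPM in KO and 205 CPM in het in cluster 17. Wls, Tnfrsf19 and Nkd1 were picked for their known roles after their values were seen.

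**Figure D3:**
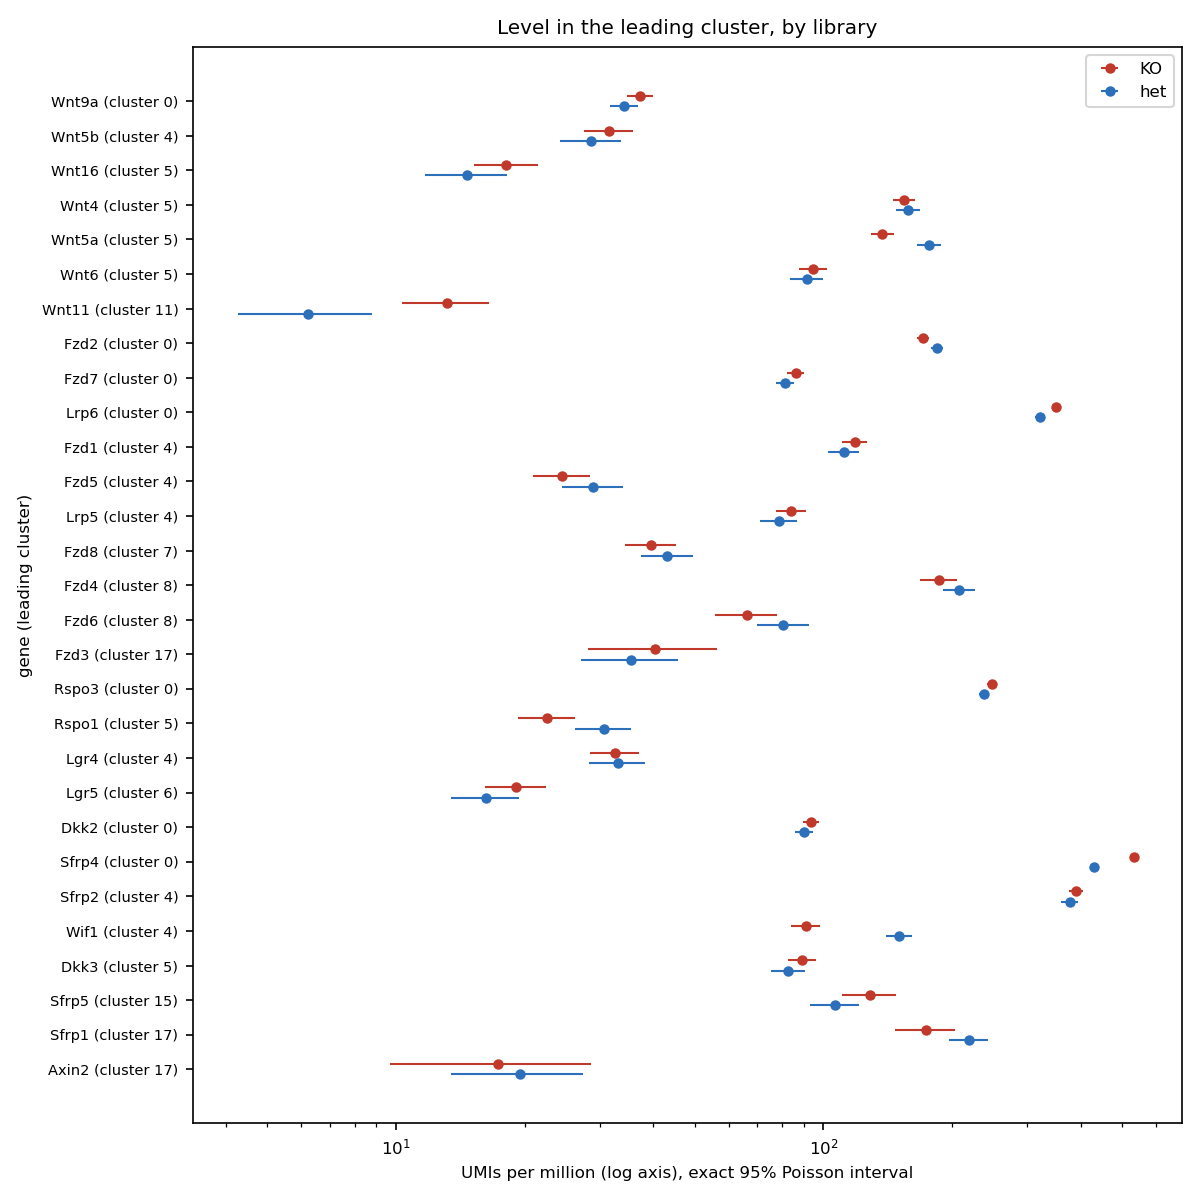
CPM of each member with at least 500 UMIs in its leading cluster of the pooled libraries (log axis), with exact 95% Poisson intervals, KO in red above het in blue. For most members the KO and het points lie close together, while Wif1 in cluster 4 (91.0 CPM in KO and 150.1 CPM in het) and Wnt11 in cluster 11 (13.2 CPM in KO and 6.24 CPM in het) lie apart.

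Between genotypes most WNT family levels were close. Members were compared wherever they had at least 50 UMIs over both libraries in a cluster with at least 50 cells in each library, which gave 254 pairs of a member and a cluster over 20 clusters and all 36 members of at least 100 UMIs. A pair was counted as lower or higher in KO when the ratio was at least 1.5-fold from 1. By this rule 24 pairs were lower (9.45%) and 28 were higher (11.02%). The interval excluded 1 for 40 of these pairs. Over all 167445 gene and cluster pairs, 4.25% were lower and 3.70% were higher. The median log2 ratio was 0.04 for the members and -0.01 for all genes, and the interval included 1 for 190 of the 254 member pairs.

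Most of the pairs past 1.5-fold lay in clusters where the member was low. In pairs where the cluster was at 50% of the member's leading level or more with the libraries pooled, a restriction added after the data were seen, 3 of 80 were lower and 5 were higher. The shares over all genes by the same rule were 2.82% lower and 1.72% higher. The 3 lower pairs were Wif1 in cluster 4 and Lgr5 and Wnt3 in cluster 15. The 5 higher pairs were Lgr5 in cluster 1, Wnt11 in cluster 11, Rspo1 in cluster 15, and Dkk3 and Fzd8 in cluster 20. The other 72 were within 1.5-fold. A pooled level can pass this limit through 1 library alone. Where the cluster was at 50% of the leading level or more in each library, 3 of 72 pairs were lower, the same 3, and 2 were higher, Wnt11 in cluster 11 and Fzd8 in cluster 20, against 1.99% lower and 1.13% higher over all genes.

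In the main stroma and barrier clusters the summed levels of each role differed little. Antagonists were higher in KO in cluster 0 (1.14, 95% interval 1.11 to 1.16), in cluster 5 (1.18, 95% interval 1.13 to 1.24) and in cluster 7 (1.11, 95% interval 1.05 to 1.18). In cluster 4 they were level (0.98, 95% interval 0.94 to 1.02). Sfrp4 made up most of the difference in clusters 0 and 5, at a KO/het ratio of 1.24, 95% interval 1.20 to 1.27 in cluster 0 and 1.24, 95% interval 1.17 to 1.31 in cluster 5. In cluster 7 Sfrp4 was not higher in KO. R-spondins were slightly lower in KO in cluster 7 (0.888, 95% interval 0.795 to 0.991). Ligands were slightly lower in KO in cluster 5 (0.93, 95% interval 0.883 to 0.979), with Wnt5a at 0.778, 95% interval 0.712 to 0.85 and Wnt4 at 0.98, 95% interval 0.897 to 1.07. None of these reached 1.5-fold. In the same cluster the arachnoid barrier marker list was at 16271 CPM in KO and 9108 CPM in het (1.79), of which Ptgds was 14964 CPM in KO and 7802 CPM in het, and its part in the result was not tested.

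Wif1 in cluster 4 was lower in the member's leading cluster in both libraries, at 91.02 CPM in KO and 150.1 CPM in het (0.606, 95% interval 0.545 to 0.674), where 1.89% of all genes were lower and 2.00% were higher. The osteolineage marker list was also lower there, at 2701 CPM in KO and 3824 CPM in het (0.71), and its part in the Wif1 result was not tested. Without the 10% of cells with most UMIs the Wif1 ratio was 0.68. Lgr5 was also lower in cluster 4, at 6.55 CPM in KO and 9.84 CPM in het (0.666, 95% interval 0.437 to 1.01). Without the cell with most Lgr5 UMIs in each library that ratio was 1.04, so it rested on 1 het cell with 24 of 51 UMIs.

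Rspo2 in cluster 0 was lower at 2.33 CPM in KO and 5.83 CPM in het (0.399, 95% interval 0.28 to 0.561), where 2.44% of all genes were lower. It was found in 33 of 1155 KO cells and 72 of 984 het cells, and among these cells it was at 68.9 CPM in KO and 67.3 CPM in het. The median was 1 UMI in the positive cells of both libraries, so this depth gives the share of cells with a UMI and cannot show a difference in level within them. Rspo3, which had nearly all the R-spondin UMIs of this cluster, was at a ratio of 1.05, 95% interval 1.01 to 1.09.

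Dkk2 in cluster 5 was higher at 15.3 CPM in KO and 8.66 CPM in het (1.77, 95% interval 1.25 to 2.52), where 1.45% of all genes were higher. Sfrp2 in cluster 7 was higher at 123 CPM in KO and 57.7 CPM in het (2.12, 95% interval 1.84 to 2.46), where 4.70% of all genes were higher. It was found in 85 of 316 KO cells and 57 of 264 het cells. The universal fibroblast marker list (Pi16, Dpt, Cd34, Ly6a and Clec3b) was higher in the same cluster, at 1959 CPM in KO and 918 CPM in het (2.13). The Sfrp2-positive cells had Pi16 at 1446 CPM in KO and 110.2 CPM in het, against 396 CPM in KO and 253 CPM in het in the other cells, so Pi16 was higher in the Sfrp2-positive cells in KO and lower in them in het. The part of that marker list in the Sfrp2 result was not tested.

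**Figure D4:**
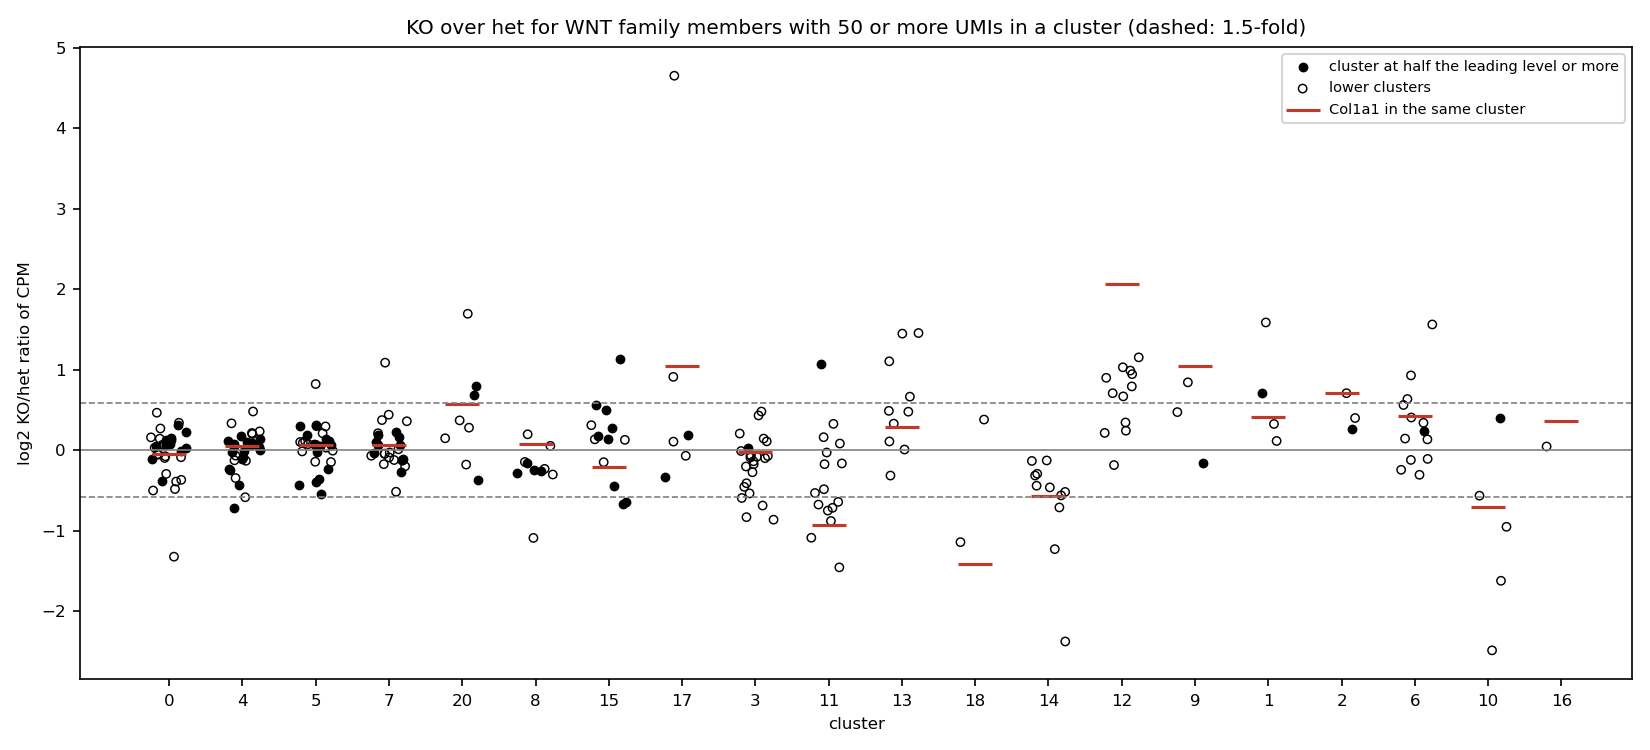
KO/het ratio on the log2 scale of each member pair with at least 50 UMIs, by cluster. Filled points are clusters at 50% of the member's leading level or more, open points are lower ones, red bars give Col1a1 in the same cluster, and dashed lines mark 1.5-fold. Filled points lie mostly within 1.5-fold, and the open points of clusters 11 and 12 lie mostly on the side of the Col1a1 bar.

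In cluster 15, Lgr5 was lower at 12.97 CPM in KO and 20.4 CPM in het (0.637, 95% interval 0.351 to 1.12) and Wnt3 was lower at 15.7 CPM in KO and 25.1 CPM in het (0.626, 95% interval 0.366 to 1.04), with both intervals including 1. Rspo1 was higher at 21.8 CPM in KO and 9.94 CPM in het (2.20, 95% interval 1.23 to 4.01), and at 1.43 without the top cell of each library. Of all genes in this cluster 8.80% were lower and 7.22% were higher. The Sfrp5-positive cells were 37.9% of the cluster in KO and 38.5% in het.

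In the vascular clusters, Rspo3 was lower in cluster 8 at 10.3 CPM in KO and 21.99 CPM in het (0.469, 95% interval 0.273 to 0.779), where 3.90% of all genes were lower. In cluster 20, where 4.68% of all genes were higher, Dkk3 was higher at a ratio of 1.60, Fzd8 at 1.73 and Sfrp2 at 3.24. Of the 91 KO UMIs of Sfrp2 there, 79 lay in 1 cell, and the ratio without the top cells was 0.71. The intervals of Dkk3 and Fzd8 included 1. In the neuron-like cluster 17, where 6.50% of all genes were higher, Lrp6 was at 87.9 CPM in KO and 46.7 CPM in het (1.88, 95% interval 1.35 to 2.61). Sfrp4 was there at 129 KO and 10 het UMIs, a ratio of 25.2, but 76 of the KO UMIs lay in 1 cell, and the stroma genes there went both ways, with Col1a1 at 754 CPM in KO and 364 CPM in het (2.07) and Lum at 53.2 CPM in KO and 182 CPM in het (0.29).

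The other 38 pairs lay in immune clusters, and they are given beside the KO/het ratios of 5 stroma genes (Col1a1, Col1a2, Col3a1, Dcn and Lum) in the same cluster. In the macrophage-like cluster 3, where 4.14% of all genes were lower, Sfrp2 (0.549), Rspo1 (0.561), Dkk3 (0.62) and Rspo3 (0.662) were lower. The interval excluded 1 for 3 of these 4. The stroma genes there lay between 0.68 for Lum and 1.09 for Dcn, with Col1a1 at 0.98, and Sfrp2 was at 2.03 there without the 10% of cells with most UMIs. In cluster 11, where 6.68% of all genes were lower and 2.04% higher, Sfrp4 (0.364), Wnt4 (0.47), Sfrp1 (0.543), Fzd4 (0.594), Fzd8 (0.608), Rspo3 (0.625) and Dkk2 (0.64) were lower, with Col1a1 at 0.52 and the 5 stroma genes between 0.453 and 0.721. Dkk2 there was at 1.17 without the deepest 10% of cells. Wnt11 went the other way in cluster 11 at 13.2 CPM in KO and 6.24 CPM in het (2.11, 95% interval 1.38 to 3.30), in 38 KO cells and 21 het cells. Counting Wnt11, the interval excluded 1 for 7 of the cluster 11 pairs past 1.5-fold.

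In the dendritic cell-like cluster 14, where 7.04% of all genes were lower, Sfrp1 (0.192), Sfrp4 (0.426) and Fzd2 (0.61) were lower. Of the stroma genes 4 were lower there, with Dcn at 0.61 and Col1a1 at 0.67, and Lum was at 1.76. In the B cell-like cluster 10, where 7.41% of all genes were lower, Sfrp4 (0.178), Rspo3 (0.324) and Wnt10a (0.516) were lower, and the 5 stroma genes lay between 0.153 for Dcn and 0.614 for Col1a1. Lrp6 was lower in cluster 18 at 0.452, where 7.98% of all genes were lower, Col1a1 was at 0.37 and Lum at 1.70. In cluster 10, without the deepest 10% of cells the ratios were 1.88 for Sfrp4, 3.83 for Rspo3 and 9.73 for Wnt10a, so that the lower values rested on those cells.

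In cluster 12, which mixes mast cell and epithelial markers, 11.8% of all genes were higher, and the 5 stroma genes lay between 3.37 and 5.27, with Col1a1 at 4.20. Dkk3 (2.22), Fzd2 (2.04), Fzd7 (1.98), Fzd1 (1.92), Fzd4 (1.86), Sfrp1 (1.73), Lrp6 (1.63) and Rspo3 (1.59) were higher there. The interval excluded 1 for 7 of these 8. In cluster 13, led by the neutrophil genes Ngp and Camp, 4.46% of all genes were higher, and Dkk3 (2.74), Sfrp1 (2.73), Rspo3 (2.15) and Sfrp4 (1.59) were higher with Col1a1 at 1.22 and the 5 stroma genes between 1.21 and 2.13. Without the deepest 10% of cells Sfrp4 was at 0.957 there. Dkk3 was higher in cluster 9 at 1.79, with an interval that included 1. There 5.04% of all genes were higher and the stroma genes lay between 2.07 for Col1a1 and 5.97 for Lum.

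Among the B cell-like clusters, Sfrp4 was higher in cluster 1 (3.01, with Col1a1 at 1.32), cluster 2 (1.63, with Col1a1 at 1.63) and cluster 6 (2.95, with Col1a1 at 1.35). The 5 stroma genes lay between 1.32 and 1.68 in cluster 1 and between 1.07 and 1.70 in cluster 2, while in cluster 6 Col3a1 was at 0.95 and Lum at 0.61. Of all genes, 3.43% were higher in cluster 1, 3.40% in cluster 2 and 3.81% in cluster 6. Lgr4 (1.55) and Dkk3 (1.90) were also higher in cluster 6. The interval of Sfrp4 in cluster 2 included 1, and in cluster 6 the interval excluded 1 for 2 of the 3 members named. Lgr5 was higher in cluster 1 at 13.7 CPM in KO and 8.36 CPM in het (1.64, 95% interval 0.975 to 2.84). The part of stromal RNA in these immune results was not tested. Col1a1 was at 804 CPM in KO and 607 CPM in het in cluster 1, against 15063 CPM in KO and 15619 CPM in het in cluster 0.

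The deposited sex label was present for each annotated cell. It matched the presence of at least 1 UMI of Xist, an RNA of female cells, in 12544 of 12544 cells, so female cells without an Xist UMI carry the male label. By this label KO had 2967 female and 3627 male cells, and het had 3035 female and 2915 male cells. A split by it is thus partly a split by detection. In cluster 4 median depths were 13674 UMIs in KO and 14860 in het for female-labelled cells. Male-labelled cells there had 13453.5 in KO and 13799 in het. In cluster 7 they were 17651 in KO and 16280.5 in het with the female label and 16913 in KO and 17890.5 in het with the male label. In cluster 0 they were 18178 in KO and 19701 in het with the female label and 18037.5 in KO and 18692 in het with the male label. The labels differed most in het cells of cluster 5, at 18953 with the female and 16125 with the male label. In KO they were at 19936 and 18743.5 there.

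Several differences changed with this label. Sfrp2 in cluster 7 was at 44.8 CPM in KO and 63.6 CPM in het in female-labelled cells (0.704, 95% interval 0.532 to 0.928) and at 171 CPM in KO and 53.5 CPM in het in male-labelled cells (3.19, 95% interval 2.66 to 3.85). The universal fibroblast list was at a ratio of 1.47 in female-labelled and 2.51 in male-labelled cells. Wif1 in cluster 4 was at 108 CPM in KO and 206 CPM in het in female-labelled cells (0.523, 95% interval 0.454 to 0.603) and at 79.9 CPM in KO and 88.3 CPM in het in male-labelled cells (0.905, 95% interval 0.761 to 1.08). The higher Sfrp2 in KO was thus seen with the male label and the lower Wif1 in KO mainly with the female label. The difference between the labels was not tested.

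Other differences had the same direction under both labels. Rspo2 in cluster 0 was at a ratio of 0.429 in female-labelled and 0.389 in male-labelled cells. Sfrp4 in cluster 0 was at 1.15 with the female and 1.31 with the male label, and in cluster 5 at 1.21 with the female and 1.24 with the male label. Wnt5a in cluster 5 was at 0.785 with the female and 0.728 with the male label. Dkk2 in cluster 5 was at 2.13 with the female label and at 1.49, 95% interval 0.824 to 2.80 with the male label. Of 124 member and cluster pairs that could be split, 10 had opposite directions under the 2 labels with both intervals excluding 1.

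**Figure D5:**
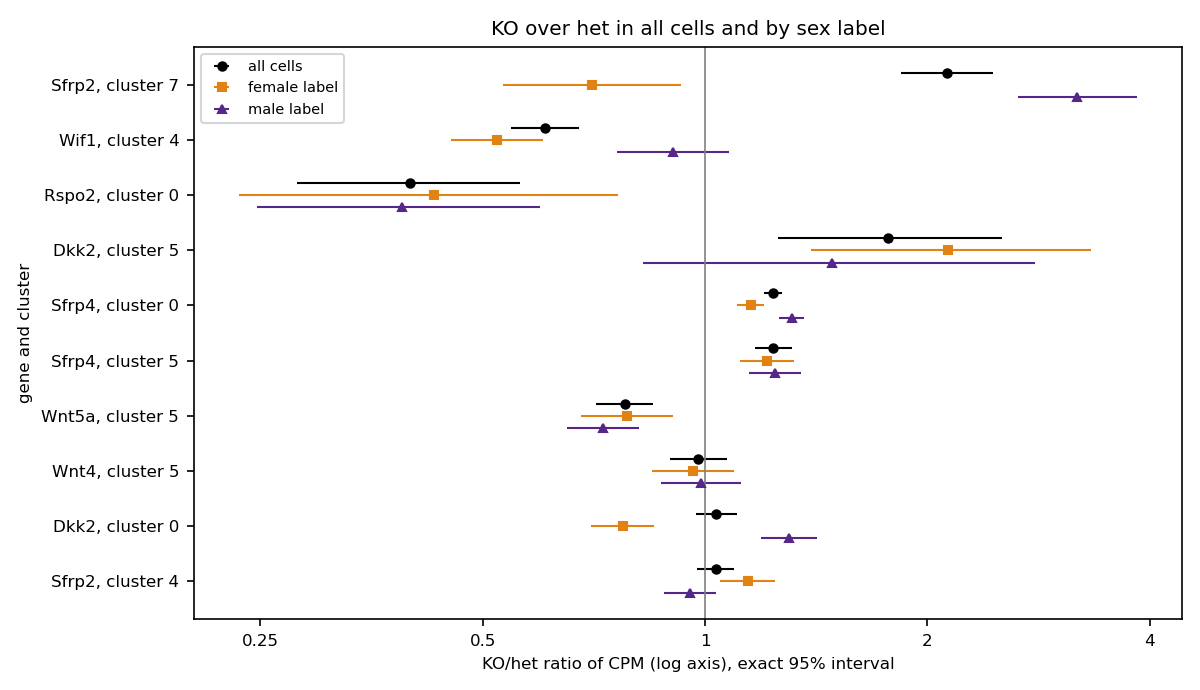
KO/het ratio (log axis) with exact 95% intervals for 10 pairs of a member and a cluster, in all cells (black), female-labelled cells (orange) and male-labelled cells (purple). Sfrp2 in cluster 7 and Dkk2 in cluster 0 lie on opposite sides of 1 under the labels, while Rspo2 in cluster 0 and Wnt5a in cluster 5 keep their side.

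The other genes of the pathway were read from 4 lists of known components. Of 69 pairs from the list of induced genes (6 of 7 genes measured), 8 were lower and 4 were higher, with a median log2 ratio of -0.07. Of 427 pairs from the intracellular and membrane list, 11 were lower and 13 were higher, with a median of -0.02. Ligand handling genes had 7 lower and 7 higher of 69 pairs, and other receptors and modulators had 10 lower and 6 higher of 116. The share over all genes was 4.25% lower and 3.70% higher.

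In the stroma and barrier the pathway differences past 1.5-fold were few. In cluster 5, the secreted antagonist Sostdc1 was lower at 1.75 CPM in KO and 12.2 CPM in het (0.143, 95% interval 0.0726 to 0.261), the transcription factor Lef1 at 8.33 CPM in KO and 15.2 CPM in het (0.548, 95% interval 0.389 to 0.768) and the secreted Frizzled-related protein Frzb at 15.2 CPM in KO and 23.7 CPM in het (0.641, 95% interval 0.494 to 0.829). Of all genes in cluster 5, 3.17% were lower. Lef1 was also lower in cluster 4 at 5.70 CPM in KO and 8.87 CPM in het (0.642, 95% interval 0.41 to 1.00), as was the related Tcf7 at 2.85 CPM in KO and 5.98 CPM in het (0.476, 95% interval 0.257 to 0.863). Axin2, by contrast, had intervals that included 1 in both clusters, at 0.851, 95% interval 0.658 to 1.10 in cluster 5 and 0.943, 95% interval 0.686 to 1.30 in cluster 4. In cluster 7, Bambi, a pseudoreceptor of the TGF-beta family that WNT signalling induces, was lower at 84.2 CPM in KO and 148 CPM in het (0.57, 95% interval 0.505 to 0.642). Tspan12, a co-activator of Fzd4, was lower there at 0.662, against 2.03% of all genes. In cluster 0 Sostdc1 was higher at 1.59, 95% interval 0.894 to 2.91.

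Elsewhere the pathway genes past 1.5-fold were scattered. In the B cell-like clusters, Lef1 was lower in cluster 1 (0.572) and higher in cluster 2 (1.59), and Pygo2 (1.55) and Gpc6 (1.53) were higher in cluster 1, where 2.08% of all genes were lower. Cluster 6 had Ccnd1, which drives the cell cycle, higher at 2.95, 95% interval 2.13 to 4.14, with Gpc6 (1.89) and Vangl1 (1.56) higher and Bambi lower (0.60). Cluster 10 had Wls (0.237), Gpc3 (0.265) and Gpc6 (0.34) lower and Myc higher (1.67), where 1.58% of all genes were higher. Cluster 16, with 4.32% of all genes lower and 2.67% higher, had Csnk1e higher (2.26).

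In the myeloid clusters, cluster 3 had Znrf3 (0.585) and Nkd1 (0.634) lower and Myc (1.92) and Porcn (1.65) higher. Cluster 11 had Ryk (0.484), Gpc3 (0.603) and Dvl1 (0.644) lower, and cluster 13 had Gpc6 (1.60) and Bcl9l (1.65) higher. Cluster 14 had Bambi (0.458), Gpc3 (0.605) and Myc (0.519) lower and Tle3 (1.59) and Tle1 (1.55) higher.

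Cluster 12 also had the glypicans Gpc3 (3.85) and Gpc4 (2.41) and Tcf7l2 (1.88) higher and Tcf7 (0.0848), Sostdc1 (0.46) and Vangl2 (0.632) lower. At most 3 genes per direction are named, and more were higher than lower there. The intracellular and membrane list had 4 higher and 1 lower, ligand handling 3 and 0, and other receptors and modulators 2 and 2. Of all genes in cluster 12, 11.8% were higher and 5.13% lower. Cluster 9, where 4.16% of all genes were lower, had Fbxw11 lower (0.516) and Znrf3 higher (1.56). In the vessels, Dvl2 was lower in cluster 8 (0.657), and in cluster 20, where 5.76% of all genes were lower, Gsk3a was lower (0.646) and Csnk1d higher (1.54). Cluster 15 had Tnks (0.513), Tspan12 (0.577) and Prickle1 (0.635) lower and Nkd2 (1.69) and Vangl1 (1.56) higher. Cluster 17 had Gpc3 (0.296), Gpc6 (0.518) and Tle3 (0.611) lower, against 5.11% of all genes, and Tle4 (1.67) and Fbxw11 (1.56) higher.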

How the data were processed

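Dural cells of 2 libraries, 1 per genotype, were profiled on the 10x Genomics platform. Per the submitters' processing notes, reads were processed with Cell Ranger 3.0.2 on mm10; no source used here names the annotation or the rule for keeping cells. The authors deposited UMI counts per gene and cell as 1 matrix per library (27998 genes), a table of counts for the annotated cells (19347 genes) and the cells' cluster, library and sex labels. The matrices were used. The table differed from them in 1671 of 42031965 values above 0, and no column belonged to another sample.

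Counts were summed per cluster and library and scaled to 1000000 UMIs. Levels have exact Poisson intervals, shares of cells exact Clopper-Pearson intervals, and KO/het ratios exact conditional binomial intervals, all at 95%. A count of 0 allows up to 3 UMIs. The ratio rule (1.5-fold, 50 UMIs, 50 cells per library) was run on all genes and tested on simulated data. Clusters 19 and 21 had too few cells for it. Doublets were not called; each cluster was also read without the 10% of cells with most UMIs.

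Members, lists and cluster groups were chosen with earlier results of these data known. Members with at least 100 UMIs are named with their leading cluster, those with at least 500 with values, and each pair past 1.5-fold is named. Pathway genes past it are named up to 3 per direction and cluster, by the interval bound nearest to 1. Python 3.11, numpy 2.4.6, scipy 1.17.1, pandas 2.3.3 and matplotlib 3.10.9 were used. Gene positions of all 44 members matched GENCODE M21.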

Additional observations from a re-analysis of the deposited data

Results flagged for a closer look

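For 9 members the KO/het ratio was past 1.5-fold downward in one cluster and upward in another, with both intervals excluding 1. These differences between clusters were not tested. Dkk2 was lowest in cluster 11 (0.640) and highest in cluster 5 (1.77), and Dkk3 was lowest in cluster 3 (0.620) and highest in cluster 12 (2.22). Fzd2 was lowest in cluster 14 (0.610) and highest in cluster 12 (2.04). Fzd4 was lowest in cluster 11 (0.594) and highest in cluster 12 (1.86). Lrp6 was lowest in cluster 18 (0.452) and highest in cluster 17 (1.88), and Rspo3 was lowest in cluster 10 (0.324) and highest in cluster 13 (2.15). Sfrp1 was lowest in cluster 14 (0.192) and highest in cluster 13 (2.73), and Sfrp2 was lowest in cluster 3 (0.549) and highest in cluster 20 (3.24). Sfrp4 was lowest in cluster 10 (0.178) and highest in cluster 17 (25.2). Each of these clusters was below 50% of the member's leading level with the libraries pooled. Several of these ratios rested on few cells. Without the 10% of cells with most UMIs, Dkk2 in cluster 11, Rspo3 and Sfrp4 in cluster 10, and Sfrp2 in clusters 3 and 20 changed direction. Of the 129 KO UMIs of Sfrp4 in cluster 17, 76 lay in 1 cell.

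For 10 of the 124 pairs split by label, the female-labelled and the male-labelled cells had ratios on opposite sides of 1 with both intervals excluding 1. These differences were not tested either, and the label itself follows Xist detection. In cluster 7, Sfrp2 was at 0.704 with the female label and 3.19 with the male label, and Fzd2 was at 1.19 with the female label and 0.857 with the male label. In cluster 4, Lgr5 was at 0.339 with the female label and 2.26 with the male label. In cluster 0, Dkk2 was at 0.773 with the female label and 1.30 with the male label. In cluster 5, Wnt6 was at 0.778 with the female label and 1.45 with the male label, and Fzd10 was at 2.09 with the female label and 0.527 with the male label. In cluster 6, Lgr5 was at 0.696 with the female label and 2.71 with the male label. In cluster 15 the 3 pairs had the same order, with Sfrp1 at 3.64 with the female label and 0.528 with the male label, Fzd8 at 3.74 and 0.423, and Sfrp5 at 2.57 and 0.487. Cluster 15 had 31 female-labelled and 72 male-labelled KO cells and 77 female-labelled and 45 male-labelled het cells.

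Of the WNT genes in the matrices that the authors' table leaves out, Wnt1 had 9 UMIs and Wnt8b had 4 UMIs in annotated cells, both above the 3 UMIs that a count of 0 allows.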

How the results depend on the processing

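The pairs of a member and a cluster past 1.5-fold numbered 24 lower and 28 higher. With at least 20 UMIs per pair there were 43 lower and 60 higher, with at least 100 UMIs 10 lower and 11 higher, and with a 2-fold threshold 9 lower and 12 higher. In clusters at 50% of the leading level or more, added after seeing the data, there were 3 lower and 5 higher with the libraries pooled, and 3 lower and 2 higher where each library met it. Male-labelled cells alone gave 17 higher, and leaving out the 10% of cells with most UMIs gave 11 lower. Scaling to the median ratio gave 22 lower and 28 higher, and the authors' table gave 24 lower and 28 higher.

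Some ratios changed direction. Without the deepest 10% of cells, Sfrp2 was at 2.03 in cluster 3, 0.369 in cluster 20, Wnt10a at 9.73, Rspo3 at 3.83 and Sfrp4 at 1.88 in cluster 10, Dkk2 at 1.17 in cluster 11 and Sfrp4 at 0.957 in cluster 13. Without the top cell of each library, Lgr5 was at 1.04 in cluster 4 and Sfrp2 at 0.713 in cluster 20. In female-labelled cells, Sfrp2 was at 0.704 in cluster 7, Dkk2 at 1.41 and Wnt4 at 1.10 in cluster 11, Dkk3 at 0.949 in cluster 12 and Lgr5 at 1.06 in cluster 15. In male-labelled cells, Lgr5 was at 2.26 in cluster 4, Dkk3 at 0.686 in cluster 6, Wnt10a at 1.03 in cluster 10 and Sfrp2 at 0.582 in cluster 20. The cause was not tested. None of the 52 ratios changed direction under the median scaling or the authors' table. Both settings stay close to the main one, so this could hardly come out otherwise. The cluster medians lay near a ratio of 1, and the table differed in 1671 of 42031965 values.

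As a mean of each cell's CPM, ligands in cluster 5 were at 489.8 in KO and 510.4 in het, antagonists in cluster 0 at 855 in KO and 748 in het, and receptors in cluster 0 at 874 in KO and 835 in het. No paired analysis was possible because each genotype had 1 library. With 1 library each, pooled mice and no replicate, intervals cover counting error only, and low members are limited by depth.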

Other observations

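Wif1 had an isolated signal in the B cell-like cluster 2. It had 1 UMI there in KO and 26 UMIs in het, and 25 of the het UMIs lay in 1 cell of 12560 UMIs, against a cluster median of 4540 UMIs.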
